A study of Mus musculus with 24 samples.

Results

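*Cdkn1a*, which encodes the cyclin-dependent kinase inhibitor p21, was examined in mouse liver together with *Trp53*, which encodes p53, and 8 further genes that p53 is known to induce. The 10 genes were chosen by name with results of these libraries known, so their values and calls are given as a description, with no p-value, beside the share of all genes called in the same fit. They are 10 of the 23972 genes in the deposited count table, and all 10 entered the fit. RNA-Seq counts were available for livers of 24 female mice. Control mice were *Lmna* fl/fl without Cre, and *Lmna* ADKO mice were *Lmna* fl/fl with *Adipoq*-Cre, which deletes exons 10 to 11 of *Lmna* in adipocytes and leaves hepatocytes untargeted, so that a liver difference between genotypes arises in an organ where the gene was not deleted. All mice were on a C57BL/6J background, were 12 to 14 weeks old when the experiment began, were housed at 22°C, and ate a 60% high-fat diet. After 4 weeks of diet they received vehicle or an AAV8 vector expressing FGF21, and livers were collected 8 weeks later. There were 7 control mice on vehicle, 3 control mice on FGF21, 6 *Lmna* ADKO mice on vehicle, and 8 *Lmna* ADKO mice on FGF21, and each library came from 1 numbered animal. The library labels call the second treatment a rescue, which was read here as FGF21. *Fgf21* itself ranged from 3.14 to 7.40 CPM in control mice so labelled, against 1.90 to 10.8 CPM in controls on vehicle, and from 2.19 to 9.99 CPM against 4.63 to 10.6 CPM in *Lmna* ADKO mice, so the ranges overlapped. Whether transcripts of the vector are counted under *Fgf21* is not given in the sources used here, and FGF21 protein in plasma was not analysed here. *Lmna* was detected in every liver, at 15.7 to 22.1 CPM in controls and 23.6 to 31.0 CPM in *Lmna* ADKO mice on vehicle, which does not check a deletion made in adipocytes.

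p53 is a transcription factor that accumulates after DNA damage, nucleolar or oncogenic stress, mainly because its protein is no longer degraded. It binds pairs of short half-sites near its targets, whose products arrest the cell cycle, repair DNA, trigger apoptosis, or feed back on p53. In liver, hepatocytes are mostly quiescent, and p21 is known to rise with steatosis, regeneration, and senescence. p21 also responds to signals that do not use p53, among them glucocorticoids, FoxO factors, and TGF-β.

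The annotated start sites of these genes show where such half-sites lie, and they are shown because the results turn on *Cdkn1a* and *Ccng1*. RefSeq windows on GRCm38.p6, from 250 bases before to 50 bases after each start, were at hand for 9 of the 10 genes, *Trp53inp1* being the exception. The 10-base p53 half-site was searched by its consensus, which reads the same on both strands. A pair of half-sites with no spacer and at most 2 mismatches was found in 2 of the 9 genes, *Cdkn1a* and *Ccng1*, and in 0.326% of all 32851 windows (0.392% of genes). The no-spacer limit was set after the windows had been seen, and with spacers of up to 13 bases the count was 3 of 9 genes, against 4.71% of all genes. The 250 bases before the start are printed for both genes, in the direction of transcription, with the pair in capitals.
Cdkn1a, chr17:29090729-29090978, plus strand: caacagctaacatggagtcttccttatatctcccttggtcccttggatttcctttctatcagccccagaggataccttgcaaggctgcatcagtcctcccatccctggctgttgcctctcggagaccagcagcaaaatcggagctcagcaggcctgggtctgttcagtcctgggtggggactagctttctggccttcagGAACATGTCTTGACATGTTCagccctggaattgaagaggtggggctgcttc
Ccng1, chr11:40755287-40755536, minus strand: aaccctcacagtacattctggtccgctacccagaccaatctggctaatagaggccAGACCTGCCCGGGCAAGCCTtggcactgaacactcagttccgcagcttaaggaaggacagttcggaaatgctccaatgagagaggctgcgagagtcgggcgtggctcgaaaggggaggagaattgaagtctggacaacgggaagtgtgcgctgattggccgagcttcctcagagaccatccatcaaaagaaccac

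The *Cdkn1a* pair (chr17:29090928-29090947) begins 51 bases before the more upstream of its 2 annotated starts, with 1 mismatch. No half-site was found in the window of the downstream start, and counts per gene cannot tell transcripts of the 2 starts apart. In *Ccng1* the pair (chr11:40755462-40755481) begins 195 bases before the start, also with 1 mismatch. A single half-site was found in *Trp53*, *Mdm2*, and *Bax*. At least 1 half-site was thus found in 5 of the 9 genes, against 9.55% of all genes (8.36% of all windows). No match in *Bbc3*, *Gdf15*, *Phlda3*, or *Btg2* says only that these letters are not in these windows.

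Each library had from 19863304 to 21510054 reads on genes. Values are given as CPM, edgeR's library-scaled counts with TMM library sizes, and 3 counts, taken as the floor of detection, correspond to 0.124 to 0.176 CPM. The liver identity of the libraries was checked on hepatocyte markers, whose 5 genes summed to 65400 to 139000 CPM, against at most 3.61 CPM for 4 adipocyte markers. Along the second principal component, with 20.7% of the variance, 3 libraries had the highest values, above the other 21, which spanned -25.3 to 9.36. They were library 7 of *Lmna* ADKO mice on FGF21 (69.0), library 3 of controls on FGF21 (53.4), and library 3 of controls on vehicle (15.4). The last lay much nearer to the rest, so the cut at 3 is a choice. These are the 3 libraries said below to lie apart. In these 3 libraries, short genes were counted relatively more. For each library, log2 CPM minus the gene's median in the same genotype was regressed on log2 exonic length, over 9690 protein-coding genes. The slopes were -0.331, -0.29, and -0.154 against -0.109 to 0.128. The animal numbers have 3 digits in 6 of 7 controls on vehicle, 0 of 3 controls on FGF21, 1 of 6 *Lmna* ADKO mice on vehicle, and 4 of 8 on FGF21. Values without these libraries, or with the number series as a covariate, are given where they matter.

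The first question was whether p53 targets differed in liver between genotypes on vehicle. *Cdkn1a* (ENSMUSG00000023067, chr17:29090976-29100727) had the largest difference of the 10 genes. Its level was 1.83 CPM in the lowest, 2.82 CPM in the median, and 12.1 CPM in the highest of the 7 control livers. It was 29.5, 55.9, and 82.9 CPM in the lowest, median, and highest of the 6 *Lmna* ADKO livers. Every *Lmna* ADKO library was thus above every control library. The means were 5.33 ± 3.97 CPM (SD, n = 7) and 55.8 ± 23.8 CPM (SD, n = 6), and the log2 fold change in the fit (log2FC, with its standard error, SE) was 3.38 (SE 0.462), or 10.4-fold. In bulk liver, more p21 RNA per cell and more cells that express it cannot be told apart. In GENCODE M21 exons of *Cdkn1a* overlap ENSMUSG00000117050 on the opposite strand, and those of *Bax* overlap *Gm45808* on the same strand. Whether the counting used strand is not given in the sources used here, so reads may be split between these genes.

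*Cdkn1a* was higher in *Lmna* ADKO livers on both sides of the animal number series, but on each side 1 genotype had only 1 liver. Among 3-digit numbers, the 1 *Lmna* ADKO liver had 32.7 CPM and the 6 controls at most 12.1 CPM. With 4-digit numbers, the 5 *Lmna* ADKO livers had at least 29.5 CPM and the 1 control 9.31 CPM. With the series as a covariate the log2FC was 2.99 (SE 0.509), and it was 3.28 (0.453) without the 3 libraries that lay apart.

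**Figure D1:**
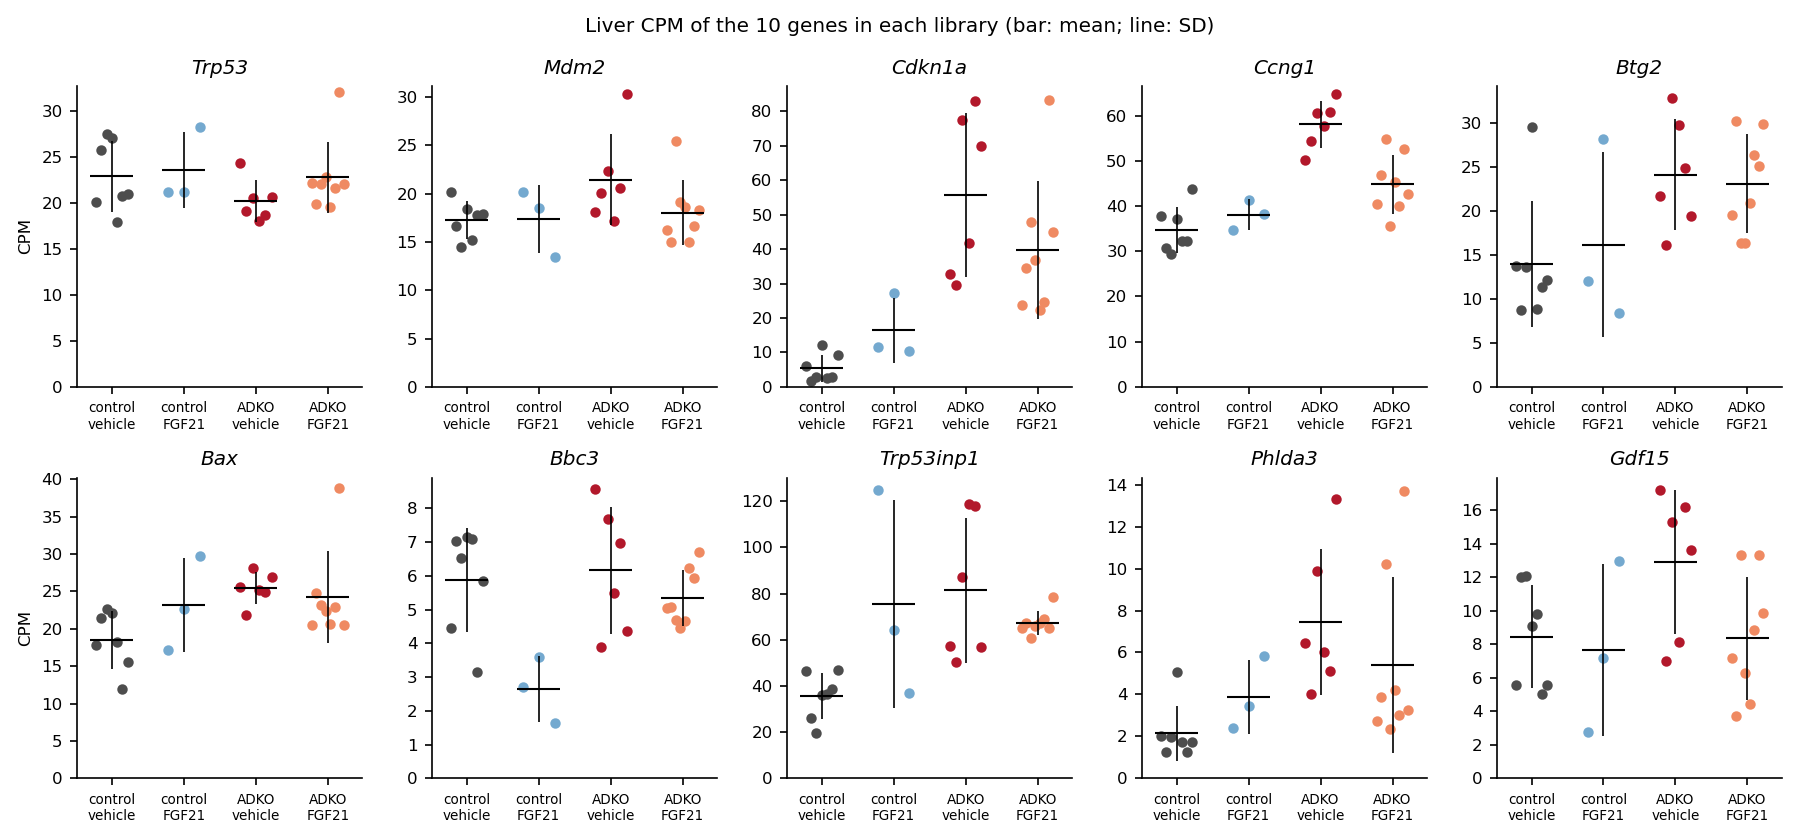
CPM of each of the 10 genes (vertical axis, linear, from 0) in every library of the 4 groups (horizontal axis), with 1 point per mouse, the group mean as a bar, and the SD as a vertical line. *Cdkn1a* lies between 29.5 and 82.9 CPM in *Lmna* ADKO mice on vehicle and at or below 12.1 CPM in controls on vehicle, whereas *Trp53* overlaps in all groups.

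*Trp53* and *Mdm2* form the core of the loop. *Trp53* ranged from 17.9 to 27.5 CPM (median 21) in controls and from 18.0 to 24.3 CPM (median 19.8) in *Lmna* ADKO livers, with a log2FC of -0.18 (SE 0.120). The ranges overlapped, and p53 activity is known to be set mostly at the protein, which was not measured. *Mdm2* encodes the ubiquitin ligase that degrades p53 and is itself a p53 target. It ranged from 14.5 to 20.2 CPM (median 17.8) in controls and from 17.2 to 30.3 CPM (median 20.3) in *Lmna* ADKO livers. The log2FC was 0.31 (SE 0.132), with the highest value in a single *Lmna* ADKO library and 22.3 CPM in the next.

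Among the other cell cycle genes, *Ccng1* and *Btg2* were both higher on average. *Ccng1* encodes cyclin G1, which recruits a phosphatase to MDM2. It had 29.3, 32.3, and 43.7 CPM in the lowest, median, and highest controls, and 50.2, 59.3, and 64.8 CPM in the lowest, median, and highest *Lmna* ADKO livers. The groups did not overlap, and the difference was small but even across animals, at a log2FC of 0.74 (SE 0.105). *Btg2*, an antiproliferative cofactor of mRNA deadenylation, ranged from 8.76 to 29.5 CPM (median 12.1) in controls and from 16.1 to 32.8 CPM (median 23.3) in *Lmna* ADKO livers. Its log2FC was 0.78 (SE 0.285). The overlap came from control library 4, at 29.5 CPM, since the other 6 controls were at or below 13.7 CPM.

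Differences were smaller in the proapoptotic genes. *Bax* encodes the effector that permeabilizes the mitochondrial outer membrane. Its level was 12 to 22.7 CPM (median 18.3) in controls and 21.8 to 28.2 CPM (median 25.4) in *Lmna* ADKO livers, with a log2FC of 0.46 (SE 0.150) and overlap at the edges. *Bbc3* encodes PUMA, a BH3-only protein that p53 strongly induces in apoptosis. It ranged from 3.16 to 7.14 CPM (median 6.52) in controls and from 3.88 to 8.57 CPM (median 6.25) in *Lmna* ADKO livers. The ranges nearly coincided, and the log2FC was 0.07 (SE 0.195).

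*Trp53inp1* and *Phlda3* showed larger differences. *Trp53inp1*, a stress protein that modulates p53 activity and autophagy, had 19.5, 36.6, and 47.0 CPM in the lowest, median, and highest controls and 50.3, 72.3, and 119 CPM in the lowest, median, and highest *Lmna* ADKO livers. The groups did not overlap, and the log2FC was 1.19 (SE 0.245). *Phlda3* encodes a pleckstrin homology protein that restrains AKT. It ranged from 1.26 to 5.06 CPM (median 1.72) in controls and from 4.01 to 13.3 CPM (median 6.24) in *Lmna* ADKO livers, with a log2FC of 1.79 (SE 0.444). Again only control library 4 reached the *Lmna* ADKO range, and the next highest control had 2.04 CPM. *Gdf15*, a secreted stress cytokine that p53 and ATF4 both induce, ranged from 5.06 to 12.1 CPM (median 9.12) in controls and from 7.03 to 17.2 CPM (median 14.5) in *Lmna* ADKO livers, with a log2FC of 0.61 (SE 0.344) and wide overlap.

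A gene was called where edgeR gave an adjusted p under 0.05, corrected over every gene tested, and the fold change exceeded 1.5. On vehicle, 4 of the 10 genes were called higher in *Lmna* ADKO livers (*Cdkn1a*, *Ccng1*, *Trp53inp1*, and *Phlda3*) and 0 lower, beside 5.12% of all tested genes called higher and 3.36% called lower. The groups did not overlap, with *Lmna* ADKO higher, for 3 of the 10, beside 4.22% of all genes (and 3.73% with *Lmna* ADKO lower). *Bax* passed the adjusted p but not the fold. With the animal number series as a covariate, 3 were called and *Phlda3* was not, whereas DESeq2 called 5, adding *Btg2*, as did edgeR without control library 4. The median log2FC of the 10 genes was 0.68, and that of all genes was 0. Since the genes were chosen with these results known, nothing is read from their share.

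**Figure D2:**
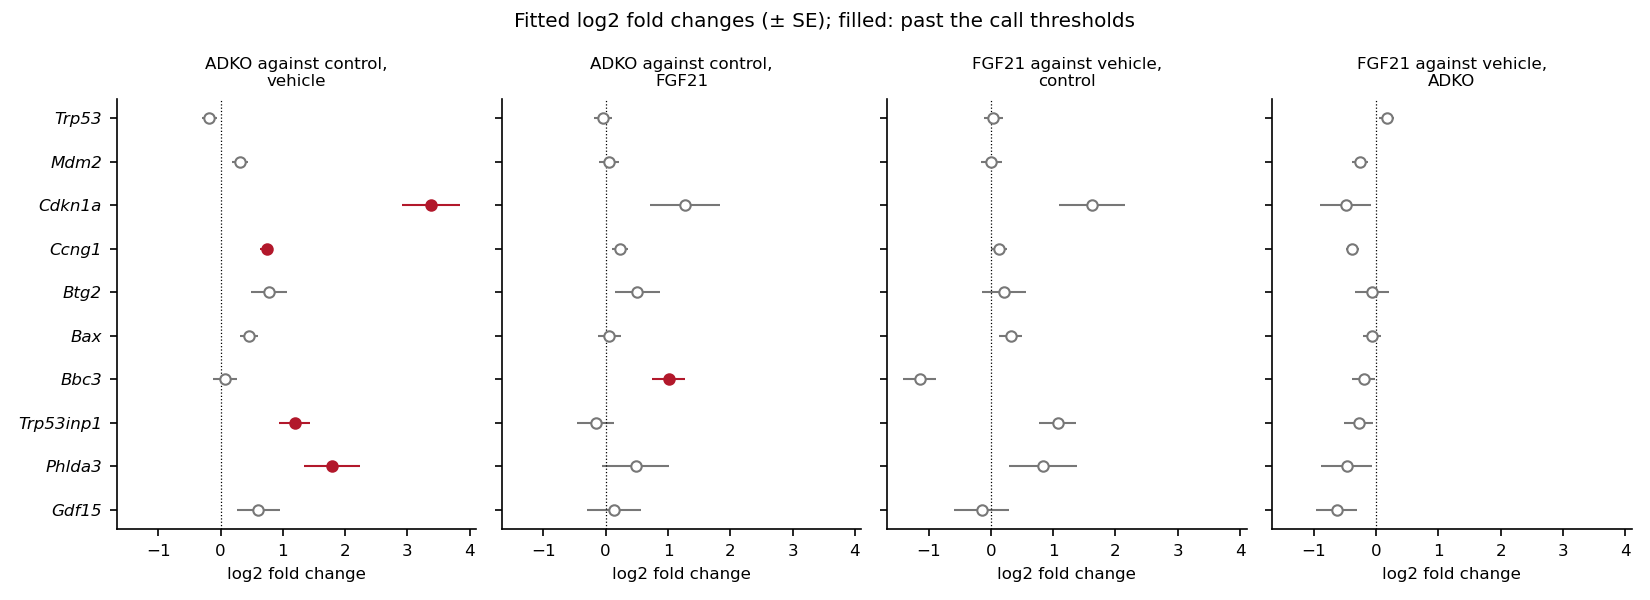
Fitted log2 fold change of each gene (horizontal axis) with its SE in the 4 comparisons (panels), where filled points passed both call thresholds. On vehicle 4 genes are filled, with FGF21 1 gene (*Bbc3*), and in both comparisons of treatment 0 genes.

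Per kilobase of exon, the 10 genes also changed order between genotypes. *Cdkn1a* had 1.5 ± 1.12 CPM per kilobase (SD, n = 7) in controls on vehicle, near *Phlda3* (1.38 ± 0.848), and below *Bax* (11.8 ± 2.46) and *Ccng1* (9.89 ± 1.43). In *Lmna* ADKO livers on vehicle it had 15.7 ± 6.70 CPM per kilobase (SD, n = 6), within the SD of *Ccng1* (16.6 ± 1.48), *Bax* (16.1 ± 1.39), and *Trp53inp1* (12.6 ± 4.84). *Cdkn1a* thus went from among the lowest of the 10 levels to the level of the 3 highest others.

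The second comparison asked whether genotypes differed in mice on FGF21. *Cdkn1a* was 10.4, 11.6, and 27.2 CPM in the 3 control livers, and 22.3, 35.7, and 83.3 CPM in the lowest, median, and highest of the 8 *Lmna* ADKO livers. The groups overlapped through control library 2, and the log2FC was 1.27 (SE 0.558). It fell within 1.02 to 1.85 when any 1 library of either group was left out, and was 0.80 without the libraries that lay apart. Of the 10 genes 1 was called higher (*Bbc3*) and 0 lower, beside 1.61% of all genes called higher and 1.26% lower. It had 1.63, 2.71, and 3.60 CPM in controls and 4.45 to 6.72 CPM (median 5.07) in *Lmna* ADKO livers. *Bbc3* did not overlap between groups, as 3.14% of all genes did not with *Lmna* ADKO higher, and its log2FC was 1.01 (SE 0.262). The call was lost without control FGF21 library 1 or 3, without the 3 libraries that lay apart, and with 4-digit animal numbers only. The log2FC of *Bbc3* was 0.75 (SE 0.303) without those 3 libraries, but 1.15 (SE 0.283) with 4-digit numbers only.

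*Trp53inp1* illustrates the spread of the small control group on FGF21, at 37.1, 64.1, and 125 CPM, against 60.6 to 78.5 CPM (median 66.5) in *Lmna* ADKO mice. The log2FC values of the other 7 genes lay between -0.05 for *Trp53* and 0.51 for *Btg2*, with overlap for each. With *Cdkn1a* and *Trp53inp1* included, the median of the 10 genes was 0.18, and that of all genes 0.02.

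The third comparison was of FGF21 with vehicle in controls, with 3 and 7 livers. *Cdkn1a* was 3.07-fold higher on average, at a log2FC of 1.62 (SE 0.527), with overlap, since the lowest FGF21 liver (10.4 CPM) was below the highest on vehicle (12.1 CPM). Without control FGF21 library 2 the log2FC was 1.05. With the animal number series as a covariate the log2FC of *Cdkn1a* was 1.16 (SE 0.612). All 3 controls on FGF21 have 4-digit numbers, but only 1 of the 7 on vehicle does, and that liver had 9.31 CPM. Treatment and number series can thus hardly be told apart in controls. *Trp53inp1* had a log2FC of 1.07 (SE 0.291), and 0.50 without control FGF21 library 1. *Bbc3* had -1.14 (SE 0.266). Here *Bbc3*, at 1.63 to 3.60 CPM, lay below 6 of the 7 controls on vehicle, the remaining control having 3.16 CPM. By edgeR 0 of the 10 genes were called, beside 0.0542% of all genes called in either direction, that is 13 genes, or 0 with the number series as a covariate. At an unadjusted p under 0.05 there were 2 higher and 1 lower, and DESeq2 called 1 (*Bbc3*, lower), as did edgeR without control vehicle library 6. The share of all genes at that unadjusted p was not computed, so nothing is read from such counts here or below.

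In *Lmna* ADKO mice, 9 of the 10 genes had a lower fitted level with FGF21 than with vehicle, and their median log2FC was -0.26, against 0 for all genes. The share of all genes fitted lower was not computed, so nothing is read from this count. It includes *Bax* at -0.07 (SE 0.145) and *Btg2* at -0.06, the latter 0.05 without vehicle library 3. *Ccng1* had the smallest error, with 35.7 to 54.9 CPM (median 44.0) on FGF21 against 50.2 to 64.8 CPM (median 59.3) on vehicle, and the log2FC was -0.38 (SE 0.101). *Cdkn1a* had a log2FC of -0.49 (SE 0.406), and -0.73 without FGF21 library 7, its highest. For *Gdf15* it was -0.63 (SE 0.332), for *Phlda3* -0.47 (0.408), and for *Trp53* 0.17 (0.116). All 10 overlapped between groups. By edgeR 0 of the 10 were called, beside 0% of all genes, with 1 at an unadjusted p under 0.05, and DESeq2 called 0 of the 10 and 15 of all genes. The effect of genotype with FGF21 minus that with vehicle was -2.11 (SE 0.667) for *Cdkn1a*, -1.35 (0.376) for *Trp53inp1*, -1.31 (0.685) for *Phlda3*, and 0.94 (0.324) for *Bbc3*, on the log2 scale. With the number series as a covariate it was -1.43 (SE 0.818) for *Cdkn1a* and -0.99 (0.467) for *Trp53inp1*, and without control FGF21 library 1 it was -0.78 for *Trp53inp1*. For this interaction, edgeR called 0 of the 10, beside 0.00417% of all genes, with 1 higher and 3 lower at an unadjusted p under 0.05, and DESeq2 called 0. The mean levels of *Cdkn1a* therefore ranked from *Lmna* ADKO on vehicle through *Lmna* ADKO on FGF21 and control on FGF21 to control on vehicle, and each neighbouring pair in that order overlapped.

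Across the 24 libraries, *Cdkn1a* and *Ccng1* varied together. Their log2 CPM had a Pearson r of 0.86 over both genotypes, and deviations from the group means had an r of 0.73. For *Cdkn1a*, the same within-group r was 0.61 with *Btg2*, 0.59 with *Phlda3*, 0.42 with *Mdm2*, and 0.17 with *Trp53*. A second set of pairs was led by *Trp53* and *Bax* (0.72), *Bax* and *Phlda3* (0.68), and *Gdf15* and *Bax* (0.67), whereas *Trp53* and *Trp53inp1* ran opposite (-0.54). *Trp53* and *Bax* were both highest, at 32.0 and 38.9 CPM, in *Lmna* ADKO FGF21 library 7, in which short genes were counted relatively more. The part of that library property in these correlations was not tested. These values describe 24 points that share groups and library properties.

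**Figure D3:**
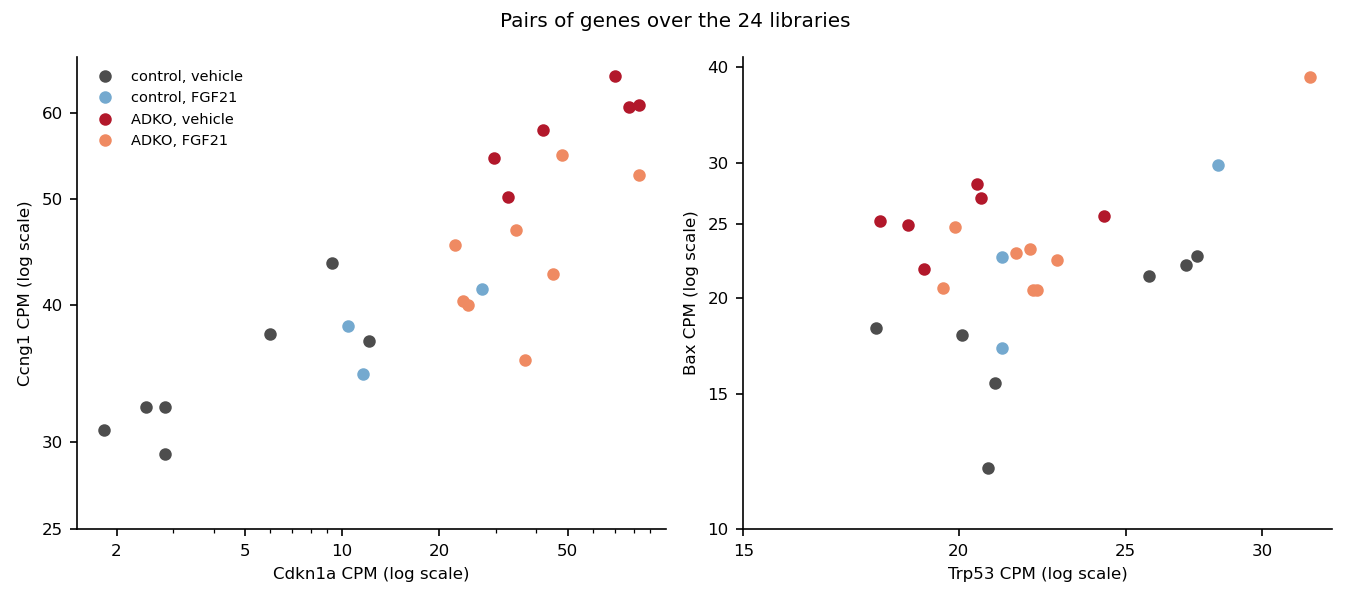
CPM of *Ccng1* against *Cdkn1a* and of *Bax* against *Trp53* (both axes on log scales), with 1 point per library colored by group. *Cdkn1a* and *Ccng1* climb together, with *Lmna* ADKO livers on vehicle at the top right, while the highest *Trp53* and *Bax* values (32.0 and 38.9 CPM) belong to 1 *Lmna* ADKO FGF21 library.

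Of the 12491 other genes whose mean log2 CPM reached 0, *Zmat3* followed *Cdkn1a* most closely over the 24 libraries (r = 0.92), and *Gusb* (0.91), *Dusp8* (0.89), and *Mtmr11* (0.88) were also among the 5 highest. *Zmat3* encodes an RNA-binding protein that p53 induces. By deviations from the group means the 5 highest were *Uros*, *Ptgr1*, and *Krcc1* (0.75 each), *Ccng1* (0.73), and *Gm13657* (0.71). *Ccng1*, 1 of the 10 genes, was thus among the 5 closest within groups.

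A list of 41 other established p53 targets was then read in the same fit. This list, too, was chosen with earlier results of these data known. Its counts and adjusted p-values are therefore a description, and nothing is read from its share. On vehicle, 13 of 41 were called higher in *Lmna* ADKO livers and 1 lower, beside 5.12% and 3.36% of all genes, and the median log2FC was 0.29, against 0 for all genes. *Ddit4*, *Ephx1*, and *Zmat3* were called well above the floor of detection. *Ddit4*, an inhibitor of mTORC1, had 3.37 ± 0.835 CPM in controls and rose to 15.1 ± 6.94 CPM (SD), and the log2FC was 2.16 (SE 0.359, adjusted p = 0.000255 by edgeR). *Ephx1*, a microsomal epoxide hydrolase of drug metabolism, rose from 349 ± 84.7 to 688 ± 103 CPM, and the log2FC was 0.98 (SE 0.179, adjusted p = 0.000307 by edgeR). *Zmat3* rose from 5.53 ± 0.844 to 12.4 ± 2.11 CPM, and the log2FC was 1.17 (SE 0.139, adjusted p = 1.29e-06 by edgeR), and the groups did not overlap.

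*Eda2r* and *Tnfrsf10b*, both of the TNF receptor family, were among the lower-expressed targets that rose. *Eda2r*, a receptor of ectodysplasin A2, had 0.422 to 1.24 CPM in controls and 3.02 to 4.79 CPM in *Lmna* ADKO livers, and the log2FC was 2.22 (SE 0.283, adjusted p = 3.7e-06 by edgeR). *Tnfrsf10b*, the TRAIL receptor, had a log2FC of 1.70 (adjusted p = 0.00037) from a mean of 0.489 CPM. *Fas*, a death receptor of the same family, had -0.04 (adjusted p = 0.92). *Apaf1*, which forms the apoptosome, also rose (0.74, adjusted p = 0.00248), whereas *Pmaip1*, which encodes the BH3-only protein NOXA, had 0.17 (adjusted p = 0.73).

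Of the other called genes, *Ckap2* (log2FC 2.16, adjusted p = 0.00232), *Psrc1* (1.54, adjusted p = 0.0278), and *Gtse1* (1.48, adjusted p = 0.00231) encode proteins of the mitotic spindle or of G2 and are known to be expressed periodically in dividing cells. Their means in controls were 0.254, 0.304, and 0.807 CPM. *Lif* (2.78, adjusted p = 0.0159) and the noncoding *Trp53cor1* (1.99, adjusted p = 0.00419) were at or near the floor, with 0 to 5 and 0 to 7 counts in controls. *Plk3* and *Aen* also rose. *Sco2*, a cytochrome c oxidase assembly factor, fell by 0.97 on the log2 scale (adjusted p = 0.0483). The 27 genes not called included *Gadd45a* (-0.59, adjusted p = 0.108), *Sesn1* (0.02, adjusted p = 0.976), *Ddb2* (-0.15, adjusted p = 0.49), and *Xpc* (0.00, adjusted p = 0.996). *Pml* and *Sesn2* passed the adjusted p but not the fold. When the 13 libraries were left out in turn, *Sco2* was not called in 12 fits, *Plk3* in 11, and *Psrc1* in 6.

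**Figure D4:**
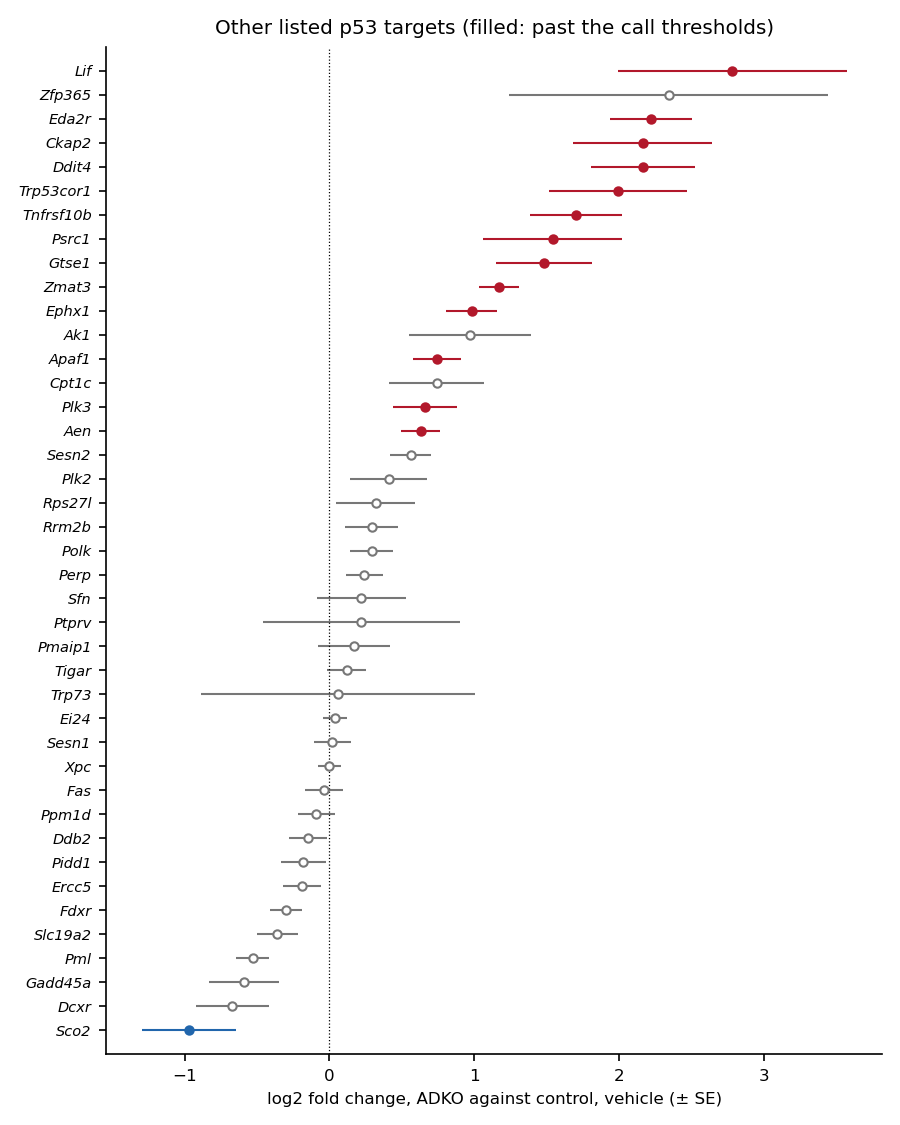
Fitted log2 fold change between genotypes on vehicle (horizontal axis, with SEs) for the 41 other p53 targets (rows, sorted by value), where filled points passed both call thresholds. The 13 genes called higher run from *Aen* to *Lif* (2.78), and *Sco2* (-0.97) is the 1 gene called lower.

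With the animal number series as a covariate, 10 of 41 were called on vehicle, of which 9 were among the 14, and *Lif*, *Trp53cor1*, *Aen*, *Plk3*, and *Sco2* were not called. In mice on FGF21, 1 of 41 was called higher (*Tnfrsf10b*, log2FC 1.57, adjusted p = 0.0413 by edgeR) and 0 lower, beside 1.61% and 1.26% of all genes, and this call was lost without any 1 of 6 libraries. In each comparison of treatment, edgeR called 0 of 41. At an unadjusted p under 0.05 there were 4 higher and 2 lower in controls, and 1 higher and 8 lower in *Lmna* ADKO mice. Without the share of all genes at that threshold, which was not computed, nothing is read from these counts. DESeq2 called 3 in controls (*Ddit4* and *Plk3* higher, *Gadd45a* lower) and 0 in *Lmna* ADKO mice. Of sequences in these promoters, pairs of half-sites were found in 5 of the 32 genes with a window, against 0.392% of all genes. The no-spacer limit was the same, set after windows had been seen. Pairs were also found in *Rps27l*, *Trp73*, and *Zfp365*, which were not called on vehicle. The called genes *Ddit4*, *Eda2r*, *Ephx1*, *Aen*, *Apaf1*, *Lif*, *Plk3*, *Psrc1*, and *Sco2* had no pair in their windows. For the called genes *Zmat3*, *Tnfrsf10b*, and *Trp53cor1* no window was at hand. The pairs of the called genes *Ckap2* and *Gtse1* are printed in capitals.
Ckap2, chr8:22186003-22186022, minus strand, 2 mismatches: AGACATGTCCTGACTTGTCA
Gtse1, chr15:85859945-85859964, plus strand, 1 mismatch: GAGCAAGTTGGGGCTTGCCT

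Of 24 regulators and cofactors of p53, 2 were called higher and 0 lower on vehicle (median log2FC -0.02), beside the 5.12% and 3.36% of all genes, and nothing is read from a count so near that share. These were *Chek1* (1.62, adjusted p = 0.00776 by edgeR) and *Atr* (0.63, adjusted p = 0.00105), the kinases of the replication stress checkpoint. *Mdm4*, the inhibitory partner of MDM2, had -0.41 (adjusted p = 0.044) and did not pass the fold, and *Atm* had 0.35 (adjusted p = 0.57). Of 21 partners of p21 and other CDK inhibitors, 3 were called higher and 0 lower (median -0.03), beside the same 5.12% and 3.36%. They were *Ccna2* (1.25, adjusted p = 0.00683), *E2f1* (1.22, adjusted p = 2.63e-05), and *Ccne1* (1.04, adjusted p = 0.0127), which encode cyclins and a transcription factor whose activity p21 is known to restrain. *Cdkn1b*, another Cip/Kip inhibitor, had -0.05 (adjusted p = 0.885), and *Cdkn2a* -0.87 (adjusted p = 0.259).

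The lists that follow are to be set against the same shares of all genes, 5.12% higher and 3.36% lower. In the BCL-2 family 0 of 13 genes were called higher and 1 lower by edgeR, *Bmf*, a BH3-only gene (-1.19, adjusted p = 0.0023). By the unadjusted p, 3 were higher and 2 lower, and DESeq2 called 0 higher and 1 lower. Of 8 paralogs of the genes, *Trp53inp2*, an autophagy gene, rose (1.03, adjusted p = 4.39e-06), *Phlda1* fell by 1.71 on the log2 scale (adjusted p = 0.00182), and 6 were not called. *Phlda1* and *Phlda3* thus differed in opposite directions. In the ATF4 pathway, which also induces *Gdf15*, 2 of 10 genes were called higher (*Ddit4* and *Atf3*, the latter 1.17 with adjusted p = 0.00384), and *Atf4* had -0.26 (adjusted p = 0.018). The median log2FC of this list was 0.68, with 7 of 10 fitted higher, and DESeq2 called 3 higher and 0 lower. That median compares with 0.68 for the 10 genes of *Cdkn1a* and p53 and 0.29 for the 41 other targets. *Ddit4* and *Sesn2* stand in both the ATF4 list and that of p53 targets. Of 12 clock genes, whose levels follow the hour of collection, 0 were called by edgeR or DESeq2, with 1 higher and 3 lower at an unadjusted p under 0.05.

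Some markers of other liver cells differed with the genotype beside these genes. The 4 markers of lipid-associated macrophages summed to 32.3 to 63.6 CPM in controls on vehicle and 119 to 252 CPM in *Lmna* ADKO livers on vehicle, with 3 of 4 called higher (*Gpnmb*, *Spp1*, and *Cd9*) and none at 0. The 5 markers of stellate cells and fibroblasts summed to 189 to 242 CPM and 245 to 336 CPM, with 1 of 5 called higher (*Lrat*). Not all 5 went the same way, since 4 were fitted higher and 1 was lower at an unadjusted p under 0.05 by edgeR. Those of Kupffer cells (328 to 487 and 170 to 383 CPM) and hepatocytes (76100 to 134000 and 66200 to 101000 CPM) overlapped, although 2 of 5 hepatocyte markers, *Serpina1c* and *Cps1*, fell. The 4 markers of sinusoidal endothelium also overlapped in their sum (156 to 206 and 147 to 191 CPM), and had log2FCs of 1.93 for *Lyve1*, the 1 gene called, 0.30 for *Pecam1*, -0.30 for *Stab2*, and -0.42 for *Clec4g* (adjusted p = 5.82e-07, 0.0268, 0.0482, and 0.134 by edgeR). On FGF21, the macrophage sum was 43.3 to 49.2 CPM in controls and 71.7 to 286 CPM in *Lmna* ADKO livers. The part of these cells in the levels of *Cdkn1a* and the other targets was not tested.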

How the data were processed

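Liver polyA RNA of 24 mice was sequenced from strand-specific libraries. The authors deposited raw counts of reads per gene, and the submitters' processing notes name cutadapt 4.8, FastQC 0.11.8, STAR 2.7.8a, RSEM 1.3.3, and GRCm38. The table holds 23972 genes, with whole numbers throughout, and which program counted them is not given in the sources used here. The methods name a university core and a NovaSeq instrument for sequencing, whereas the labels name another provider. Of the genes, 23900 were located through GENCODE M21. The quasi-likelihood test of edgeR 4.0.16 (R 4.3.3; robust glmQLFit, then glmQLFTest) was run on TMM-scaled counts of all 4 groups together, with Benjamini-Hochberg adjustment over all genes. Calls needed an adjusted p under 0.05 and a fold change above 1.5. Standard errors are the absolute log2 fold change over the root of F, and log2 CPM used a prior count of 2. Replicates were separate animals, and 0 libraries were left out of the fit. The scripts were tested on simulated data. Alternatives were DESeq2 1.42.0, its size factors in edgeR, filterByExpr, only the groups compared, the adjusted p alone, the animal number series as a covariate, only 4-digit numbers, leaving out 3 libraries together or each in turn, and the length slope as a covariate.

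The 10 genes and all lists were chosen with earlier results of these data known. Beyond the 10, named genes are the called genes of each list (at most 4 per list and comparison by size of change, or 10 for other p53 targets), the 5 genes most correlated with *Cdkn1a* by each measure, and list genes whose values bear on a result. *Fas*, *Pmaip1*, *Gadd45a*, *Sesn1*, *Ddb2*, *Xpc*, *Plk3*, *Aen*, *Apaf1*, *Sco2*, *Pml*, *Sesn2*, *Mdm4*, *Atf4*, *Cdkn1b*, *Cdkn2a*, *Atm*, *Pecam1*, *Stab2*, and *Clec4g* were picked from the lists after their values were seen. Promoter windows came from RefSeq. Another gene among those closest to *Cdkn1a* is not reported here.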

Additional observations from a re-analysis of the deposited data

Results flagged for a closer look

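Libraries that stood apart from their group were sought on log2 CPM in 72 groups of 6 to 8 libraries, for the 10 genes and 14 called targets. In these, 6 values were flagged. The rule flags about 1 in 20 groups of independent normal values. These groups share libraries, so no excess is read from the count. In *Lmna* ADKO FGF21 library 7, *Trp53* had 32.0 CPM (next highest 22.8), *Bax* 38.9 CPM (next 24.8), and *Sco2* 92.4 CPM (next 38.0), and this is the library whose length slope was lowest. In control vehicle library 4, *Phlda3* had 5.06 CPM (next 2.04) and *Btg2* 29.5 CPM (next 13.7), and *Cdkn1a* was also highest of that group there, at 12.1 CPM. *Mdm2* had 25.5 CPM in *Lmna* ADKO FGF21 library 3 (next 19.1).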

How the results depend on the processing

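On vehicle, the count of the 10 genes called stayed between 3 and 5 under the alternatives run, and that of the other targets between 10 and 16. The 4-digit numbers alone were not run there or for treatment in controls, since 1 control on vehicle has one. On FGF21, the 1 call among the 10 genes became 0 with 4-digit animal numbers only and without the 3 libraries that lay apart, and ranged from 0 to 1 when libraries were left out singly. That among other targets became 0 with only the groups compared, with the number series as a covariate, with 4-digit numbers only, and without the 3 libraries, and ranged from 0 to 3. For FGF21 against vehicle in controls, DESeq2 gave 1 and 3 in place of 0 and 0, and leaving out libraries gave 0 to 1 for the 10 genes. In *Lmna* ADKO mice both counts were 0 throughout. Over all genes, the count on FGF21 ran from 316 to 1149 against 690, that on vehicle rose from 2033 to 3623 by the adjusted p alone, that for treatment in controls went from 13 to 0 with the number series as a covariate, to 38 by DESeq2, to 3 without FGF21 library 2, and to 26 without vehicle library 6, and *Lmna* ADKO mice gave 61 calls in place of 0 for treatment without FGF21 library 3. Of 1080 recomputed log2 fold changes of the 10 genes, 3 moved by more than the spread between replicates, each in the interaction, and 0 reversed a call. The causes were not tested. No paired analysis was possible because the labels give animal numbers and no shared replicate numbers. Genes under about 1 CPM, such as *Lif*, rest on a few counts, and precision on FGF21 is limited by its 3 controls.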
